A study of Mus musculus with 6 samples.

Results

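The genes described here are the co-factors that present lipopolysaccharide (LPS) to Toll-like receptor 4 (TLR4) and the adaptors and kinases that carry the signal from the receptor into the cell. They are 10 genes, Cd14, Ly96, Myd88, Tirap, Ticam1, Ticam2, Irak4, Irak1, Irak2 and Traf6, taken by their symbols from a deposited table of 54532 mouse genes. All 10 were found in the table and all 10 passed the filter on low counts. The cells were N9 microglia, an immortalized line derived from mouse brain. RNA was sequenced from 3 control samples, which were untreated, and from 3 samples given LPS (1 µg/ml, 6 h), and the labels list no genetic change in either group. All 6 samples come from that 1 line, and nothing in the labels says whether replicates were separate cultures, so p-values measure the spread between these samples, which may be technical.

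LPS, a glycolipid in the coat of gram-negative bacteria, is lifted from its carrier by CD14 and handed to MD-2, the protein encoded by Ly96, which sits on the outer face of TLR4. Dimerized TLR4 then recruits adaptors through a shared cytoplasmic fold, the TIR domain. On one branch TIRAP brings in MyD88, which assembles the kinases IRAK4, IRAK1 and IRAK2 into the Myddosome and, through the ubiquitin ligase TRAF6, activates NF-κB and MAP kinases. On the other branch TRAM, encoded by Ticam2, brings in TRIF, encoded by Ticam1, which leads to TBK1, IRF3 and type I interferon. Microglia, the resident macrophages of the brain, use both branches.

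The total count lay between 16363767 and 17956772 per library, and 3 counts corresponded to between 0.161 and 0.19 CPM, the counts of a gene scaled to the same total in every library. The labelled cell type was checked on 12 microglia and macrophage markers, whose summed level was 2042 to 2106 CPM in control and 2252 to 2310 CPM in LPS libraries. Their part in the results was not tested. Csf1r, the receptor for the growth factor of macrophages, had at least 7140 counts in every library, but Aif1 had 4 to 9 counts and P2ry12 had 3 to 6. The 5 astrocyte markers summed to 95.3 to 97.7 CPM in control and 95.8 to 103.9 CPM in LPS libraries, nearly all of it from Gja1 and Aldh1l1, and Gfap had at most 10 counts. The 4 oligodendrocyte markers summed to 33.4 to 39.8 CPM and 27.95 to 29.5 CPM, nearly all of it from Mbp. Summed over 4 neuronal markers the level was at most 0.634 CPM, and Olig2, an oligodendrocyte factor, was at 0 counts throughout. The summed level of 8 hepatocyte markers ran from 0.409 to 21.2 CPM in control and from 0.061 to 0.731 CPM in LPS libraries, with most of it in control replicates 2 and 3. Summed collagen and fibroblast markers ran from 0.454 to 11.2 CPM in control and from 0.792 to 7.73 CPM in LPS libraries, with Col1a1 at 70 and 49 counts in control replicates 1 and 3, 40 in LPS replicate 1 and at most 3 in the others. Without control replicates 2 and 3 (the hepatocyte markers), 5 members were again called higher. Without control replicates 1 and 3 and LPS replicate 1 (the collagen genes) 4 were, Tirap no longer. Both alternatives were added after the data were seen and leave 1 control library, assumed to vary like the LPS libraries.

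Levels below are CPM on libraries normalized by the trimmed mean of M-values (TMM), and changes are log2 fold changes of LPS against control from the quasi-likelihood test of edgeR. A gene was called at an adjusted p under 0.05, with Benjamini-Hochberg adjustment over the 12296 genes tested. LPS-treated N9 microglia had more mRNA of the receptor co-factor Cd14, of the adaptors Myd88, Ticam1 and Tirap and of the kinase Irak2, so that 5 of the 10 members were called higher. Among all tested genes 18.7% were called higher. By DESeq2 4 members were called higher, without Tirap (adjusted p = 0.0783). The edgeR call of Tirap also ended when control replicate 1, LPS replicate 1 or LPS replicate 3 was left out. Lower calls numbered 0 of the 10 by edgeR, and also 0 at an unadjusted p under 0.05 and 0 by DESeq2, beside 15.7% of all tested genes. The stricter rule of the study adds an absolute log2 fold change over 1.5. By that rule 0 members were called by edgeR, 0 at an unadjusted p and 0 by DESeq2, where 2.4% of tested genes were called higher and 0.252% lower. In bulk RNA, a change in the share of cells that express a gene and a change in RNA per cell cannot be told apart.

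Every LPS library lay above every control library for 6 members, the 5 called genes and Traf6, as it did for 23.7% of tested genes. The opposite arrangement was found for 0 members and for 21.5% of tested genes. By a two-sided exact permutation test on CPM each of these 6 genes had p = 0.1, the smallest value that 3 libraries against 3 allow, and the other members had p = 0.2 (Ticam2 and Irak1), 0.3 (Ly96) and 0.7 (Irak4). Across the members the median log2 fold change was 0.22, beside 0.0036 over all tested genes, and the median absolute change was 0.23 beside 0.17. The plot of all members by library shows both the narrow control groups of Cd14, Myd88 and Irak2 and the overlap of the groups in Ly96, Ticam2, Irak4 and Irak1.

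**Figure D1:**
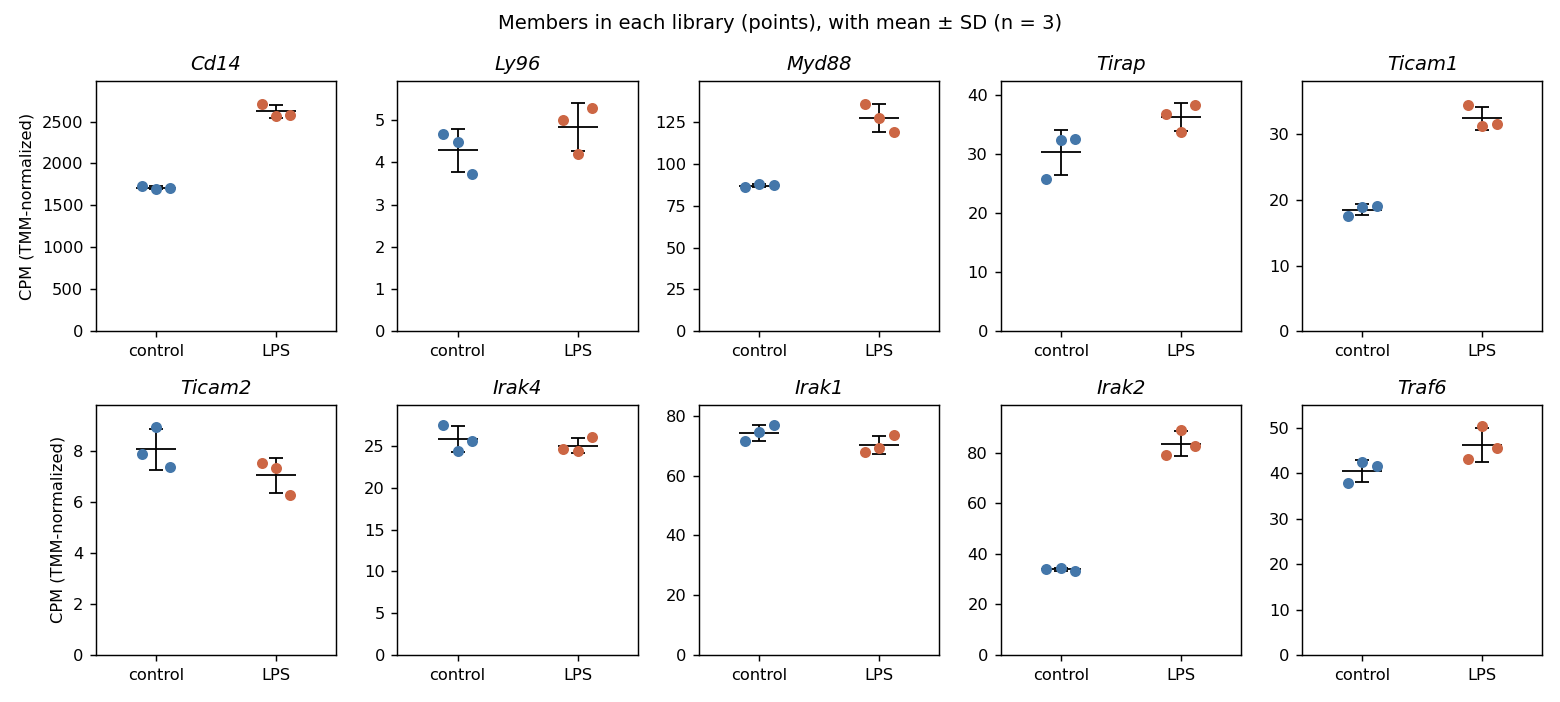
Level of each of the 10 members in CPM (vertical axes, from 0) in each control and LPS library (points, 3 per group), with the mean and SD of each group (bars). The LPS points of Cd14, Myd88, Ticam1, Irak2, Tirap and Traf6 lie above all control points, with the narrowest gap in Tirap and Traf6.

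Cd14 (ENSMUSG00000051439), which lies on chromosome 18 of GRCm38 from 36725074 to 36726736 on the minus strand, encodes the lipid-anchored surface protein that binds LPS and also drives uptake of TLR4 into endosomes. Its level was 1731, 1697 and 1707 CPM in control replicates 1, 2 and 3, and 2711, 2570 and 2582 CPM in LPS replicates 1, 2 and 3. The group means of 1712 ± 17.3 and 2621 ± 78.3 CPM (SD, n = 3) were far apart relative to their spread. Cd14 rose 1.53-fold (95% interval 1.47 to 1.60), a log2 fold change of 0.61 (standard error, SE, of 0.03, adjusted p = 2.14e-10 by edgeR). Already in control cells Cd14 was among the most counted genes, at rank 32 to 34 by counts, and in LPS libraries it stood at rank 16 to 18. It took from 0.175% to 0.179% of all counts in control and from 0.248% to 0.261% in LPS libraries. A gene with a moderate fold change thus had the largest increase in CPM of the 10.

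Ly96 (ENSMUSG00000025779), on chromosome 1 from 16688051 to 16709611 on the plus strand, encodes MD-2, the secreted protein that holds the lipid part of LPS against TLR4. Control replicates 1, 2 and 3 had 80, 79 and 69 counts of Ly96 and LPS replicates 1, 2 and 3 had 79, 69 and 87, which is 4.67, 4.48 and 3.71 CPM against 5.01, 4.21 and 5.30 CPM. The groups overlapped. The log2 fold change was 0.18 (SE 0.18, adjusted p = 0.492 by edgeR), and its 95% interval of -0.20 to 0.56 allows a fold change from 0.869 to 1.47. The value varied with single libraries of this sparsely counted gene, standing at 0.07 when control replicate 3 was left out and 0.11 when LPS replicate 3 was, and at 0.27 when LPS replicate 2 was, and it was 0.05 with control replicate 1 as the only control library.

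Among the adaptors, Ticam1 and Myd88, which head the branches, changed most, and the bridging adaptors Tirap and Ticam2 changed less or were not called. Ticam1 (ENSMUSG00000047123), on chromosome 17 from 56269319 to 56276786 on the minus strand, encodes TRIF. It was counted at 17.5, 18.9 and 19.1 CPM in control and 34.4, 31.3 and 31.5 CPM in LPS libraries. Every LPS value exceeded the highest control value by more than the SD of either group. Ticam1 rose 1.75-fold (95% interval 1.55 to 1.97), by 0.81 on the log2 scale (SE 0.08, adjusted p = 1.73e-06 by edgeR).

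Myd88 (ENSMUSG00000032508), on chromosome 9 from 119335934 to 119341411 on the minus strand, encodes the adaptor shared by nearly all Toll-like receptors and by the receptors of the interleukin-1 family. It was at 86.2, 88.0 and 87.3 CPM in control and 136, 128 and 119 CPM in LPS libraries. The control libraries were almost alike, whereas the LPS libraries spread more widely and still did not reach down to them. Myd88 rose 1.46-fold (95% interval 1.36 to 1.58), by 0.55 on the log2 scale (SE 0.05, adjusted p = 8.76e-07 by edgeR). In GENCODE release M21, 11.3% of its exonic bases are shared with Acaa1a on the opposite strand.

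Tirap (ENSMUSG00000032041), on chromosome 9 from 35184551 to 35200291 on the minus strand, encodes the adaptor that ties MyD88 to membrane lipids near the receptor. It was at 25.8, 32.4 and 32.6 CPM in control and 36.8, 33.6 and 38.2 CPM in LPS libraries, with control replicate 1 well below the other control libraries and LPS replicate 2 close to them. The log2 fold change was 0.26 (SE 0.09, adjusted p = 0.0416 by edgeR). This call rests on single libraries. Without control replicate 1 the change was 0.15 with an adjusted p of 0.187 by edgeR, without LPS replicate 1 the adjusted p was 0.0976, without LPS replicate 3 it was 0.142, and DESeq2 gave 0.0783. Over all 14 alternatives its adjusted p ran from 0.0137 to 0.187, and 10 of them called it. With the low control replicate 1 as the only control library the log2 fold change was 0.49, and with control replicate 2 against LPS replicates 2 and 3 it was 0.14 (adjusted p = 0.485 by edgeR).

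Ticam2 (ENSMUSG00000056130), on chromosome 18 from 46559155 to 46574533 on the minus strand, encodes TRAM and was the least counted of the 4 adaptors. It had 135, 158 and 137 counts in control and 119, 120 and 103 in LPS libraries, which is 7.88, 8.96 and 7.37 CPM against 7.54, 7.32 and 6.27 CPM. The groups overlapped, as LPS replicate 1 lay above control replicate 3. The log2 fold change was -0.20 (SE 0.14, adjusted p = 0.312 by edgeR), with a 95% interval from -0.49 to 0.10, and it was -0.12 without control replicate 2 and likewise without LPS replicate 3, and -0.41 without the libraries with collagen counts. In GENCODE release M21, 14.5% of its exonic bases are shared with Tmed7 on the same strand, where reads could be lost or assigned to either gene.

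Of the kinases, Irak2 stood apart. Irak2 (ENSMUSG00000060477), on chromosome 6 from 113638467 to 113695026 on the plus strand, encodes the kinase-like member of the Myddosome that sustains TRAF6 signaling. It was at 33.9, 34.5 and 33.4 CPM in control and 79.0, 89.0 and 82.9 CPM in LPS libraries, so that the lowest LPS library held more than the control libraries by a wide margin. Irak2 rose 2.47-fold (95% interval 2.26 to 2.69), the largest change of the 10 in every fit that was run, by 1.30 on the log2 scale (SE 0.06, adjusted p = 2.14e-10 by edgeR). It ranked 355 of 12296 tested genes by log2 fold change, and Ticam1 ranked 683, Cd14 940 and Myd88 1045.

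Irak1 (ENSMUSG00000031392), on chromosome X from 74013914 to 74023918 on the minus strand, encodes the kinase that IRAK4 phosphorylates and that binds TRAF6. It was at 71.5, 74.7 and 76.8 CPM in control and 67.9, 69.3 and 73.7 CPM in LPS libraries, with overlapping groups. Its log2 fold change was -0.08 (SE 0.05, adjusted p = 0.268 by edgeR), with a 95% interval from -0.19 to 0.03, and it was -0.02 without control replicates 2 and 3. Irak4 (ENSMUSG00000059883), on chromosome 15 from 94543643 to 94581815 on the plus strand, encodes the kinase that starts the chain. It was at 27.6, 24.4 and 25.6 CPM in control and 24.6, 24.5 and 26.1 CPM in LPS libraries, and its values interleaved. Irak4 had a log2 fold change of -0.04 (SE 0.08, adjusted p = 0.724 by edgeR), with a 95% interval from -0.22 to 0.13. Leaving out 1 library moved this small value between -0.09 (without control replicate 2) and -0.01 (without control replicate 1), with -0.07 without LPS replicate 3 and -0.03 without LPS replicate 2. With 1 control library it was -0.14 against control replicate 1 and, without the libraries with collagen counts, 0.04. For both kinases the intervals leave out a change as large as that of any of the 4 members with the largest changes.

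Traf6 (ENSMUSG00000027164), on chromosome 2 from 101678429 to 101701669 on the plus strand, encodes the ubiquitin ligase in which the MyD88 branch converges. It was at 37.9, 42.5 and 41.5 CPM in control and 43.1, 50.4 and 45.5 CPM in LPS libraries. No LPS library fell to the level of a control library, but LPS replicate 1 came within 1 CPM of control replicate 2. The log2 fold change of 0.19 (SE 0.07) had an edgeR adjusted p of 0.0558 and stayed just outside the call. The 14 alternatives gave adjusted p-values from 0.0244 to 0.257, and 4 of them called Traf6 higher. One of these was the replicate block, with a log2 fold change of 0.19 and an adjusted p of 0.0244 by edgeR. Another left out LPS replicate 1 and gave a log2 fold change of 0.24 with an adjusted p of 0.0303. With control replicate 1 as the only control library the log2 fold change was 0.29 (adjusted p = 0.0599), and without LPS replicate 2 it was 0.13 with an adjusted p of 0.257.

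**Figure D2:**
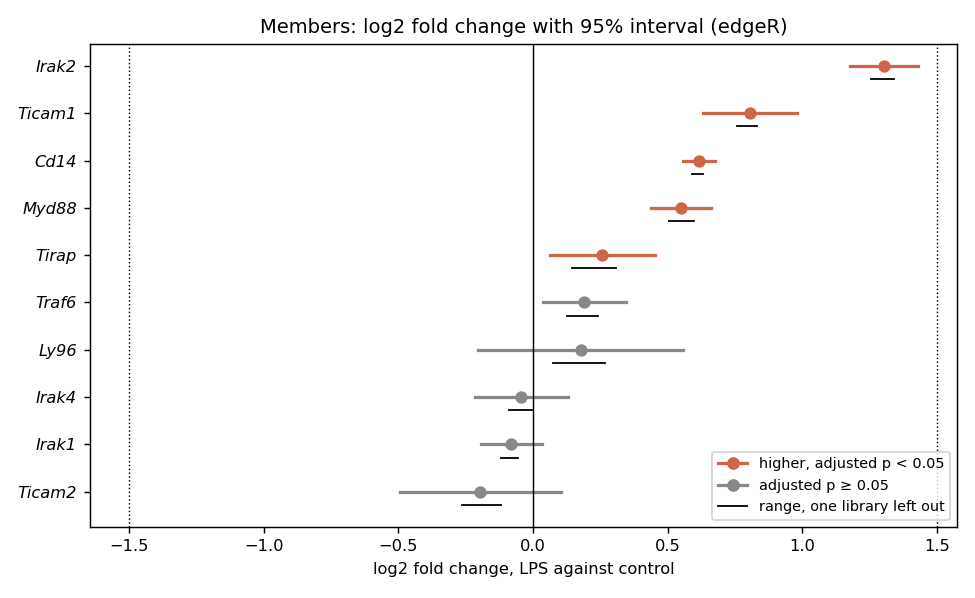
Log2 fold change of LPS against control (horizontal axis) for each member, with its 95% interval (coloured bar) from edgeR and the range over the 6 fits that each left out 1 library (thin black bar below). Dotted lines mark 1.5 in either direction, which Irak2 at 1.30 does not reach, and the intervals of Ly96, Irak4, Irak1 and Ticam2 span 0.

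**Figure D3:**
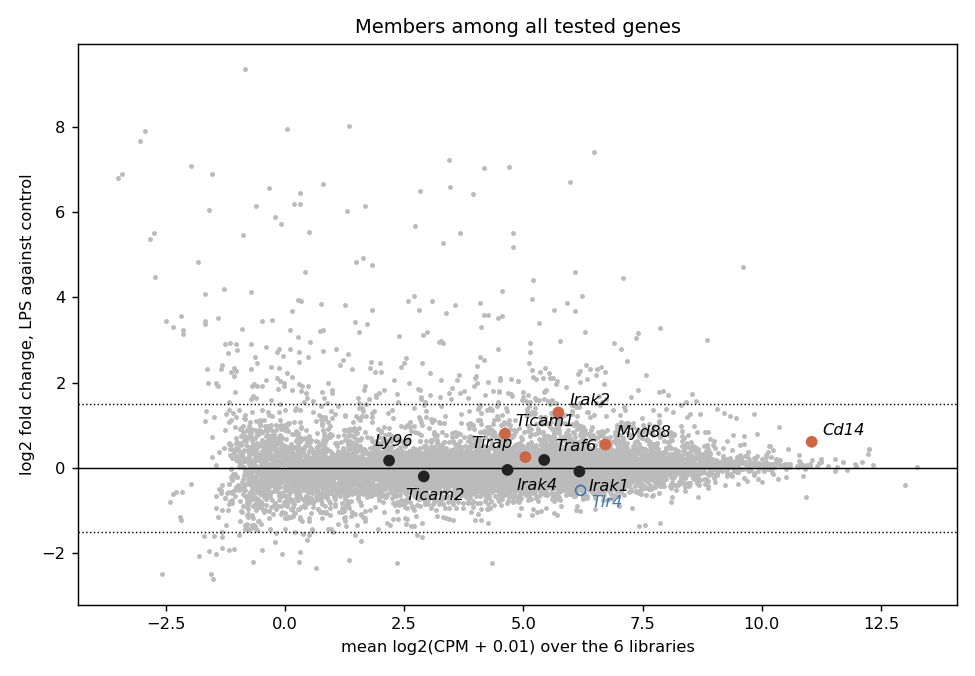
Log2 fold change (vertical axis) against mean level (horizontal axis, log2 of CPM + 0.01) for all 12296 tested genes (grey), with called members in orange, the other members in black and the receptor gene Tlr4 as an open blue circle. Cd14 lies at the far right among the most abundant genes, and Irak2 is the highest member just below the dotted line at 1.5.

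The sequence around the start of transcription is described next, with no test against the changes. Windows of 300 bases, from 250 before to 50 after the start of transcription, were taken from RefSeq on build GRCm38.p6, where 7 of the 10 members matched by symbol. Cd14, Ly96 and Ticam2 had no entry. The windows were searched on both strands for the NF-κB motif, for AP-1 as TGANTCA and for the core of the interferon-stimulated response element (ISRE) as GAAA, any 2 bases and GAAA. A match is a description of the letters and not evidence of binding. Among all 32851 windows, 8.46% held the NF-κB motif, 7.81% the AP-1 motif and 3.44% the ISRE core. The windows of Irak2, Ticam1, Tirap, Irak4 and Traf6 held 0 matches to any of the 3. Irak2, at chr6:113638217-113638516 on the plus strand, is shown as the member with the largest change. Irak1, at chrX:74023869-74024168 on the minus strand, is shown because it alone held the NF-κB motif, in a stretch that matches on both strands and has its first base at -21 from the start of transcription. A further window from a second Irak1 start holds the same stretch at -18. Myd88, at chr9:119339969-119340268 on the minus strand, is shown for its ISRE core at -40 from the start that RefSeq gives, a start that lies inside the gene as the deposited table draws it. Capitals mark these matches, and each sequence runs 5′ to 3′ along the strand of its gene.
Irak2: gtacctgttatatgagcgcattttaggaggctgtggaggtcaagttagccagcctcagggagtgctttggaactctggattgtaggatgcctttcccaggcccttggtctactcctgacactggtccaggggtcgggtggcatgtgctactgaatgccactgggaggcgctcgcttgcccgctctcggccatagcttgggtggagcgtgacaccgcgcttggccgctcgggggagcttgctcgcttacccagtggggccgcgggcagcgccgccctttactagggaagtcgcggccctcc
Irak1: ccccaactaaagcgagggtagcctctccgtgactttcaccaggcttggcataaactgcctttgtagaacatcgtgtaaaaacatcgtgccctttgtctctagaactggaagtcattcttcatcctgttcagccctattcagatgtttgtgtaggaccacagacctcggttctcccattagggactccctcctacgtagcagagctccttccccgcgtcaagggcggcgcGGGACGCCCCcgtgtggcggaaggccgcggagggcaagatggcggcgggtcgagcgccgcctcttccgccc
Myd88: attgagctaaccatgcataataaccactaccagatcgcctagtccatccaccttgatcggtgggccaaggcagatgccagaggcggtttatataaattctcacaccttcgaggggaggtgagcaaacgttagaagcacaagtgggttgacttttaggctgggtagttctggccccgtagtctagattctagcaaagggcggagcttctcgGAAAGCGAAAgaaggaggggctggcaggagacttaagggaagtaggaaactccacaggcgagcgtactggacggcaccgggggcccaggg

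Irak1 and Tirap had 2 overlapping windows each and the other matched members 1, whereas Irak2 and Irak1 have 9 and 22 annotated transcripts in GENCODE release M21. The deposited counts sum over the transcripts of a gene, so that the short form of MyD88 and the several forms of IRAK2 are not separated. A further limit of the counts is overlap with other annotated genes, which covers 9.84% of the exonic bases of Tirap, 7.87% of Irak4, 4.44% of Irak2 and 2.99% of Irak1, and none of Ly96, Ticam1 and Traf6.

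To compare levels between genes, CPM was divided by the gene length in kilobases that the deposited table lists. By this measure Cd14 stood at 1089 ± 11 CPM per kilobase in control libraries (SD, n = 3), above 99.9% of tested genes, and made up 92.7% of the sum over the 10 members. Next came Myd88 at 33.8 ± 0.354, Irak1 at 15.8 ± 0.567 and Irak2 at 7.69 ± 0.126 CPM per kilobase, each apart from its neighbours in every library. Ticam1 (6.19 ± 0.291), Tirap (6.13 ± 0.78), Traf6 (5.15 ± 0.307) and Irak4 (5.14 ± 0.32) followed, and along this stretch each gene overlapped with the next. Ly96 at 4.20 ± 0.497 and Ticam2 at 2.05 ± 0.206 CPM per kilobase were lowest, Ticam2 above only 24.4% of tested genes. The co-factor that captures LPS and the one that presents it to the receptor were thus the most abundant and the next to least abundant members.

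With LPS the order changed at one place. Irak2 reached 18.9 ± 1.14 CPM per kilobase and stood above Irak1 at 14.9 ± 0.634 in every LPS library, and it moved from above 52.8% to above 74.6% of tested genes. Cd14 reached 1667 ± 49.8 and Myd88 49.6 ± 3.25 CPM per kilobase, ahead of Irak2. Below Irak1 the order stayed Ticam1 (10.8 ± 0.586), Tirap (7.34 ± 0.475), Traf6 (5.88 ± 0.474), Irak4 (4.99 ± 0.184), Ly96 (4.74 ± 0.553) and Ticam2 (1.79 ± 0.173). Irak4 and Ly96 were the only neighbours that overlapped. These levels depend on the length used. GENCODE release M21 gives Cd14 1732 and Ticam2 5792 exonic bases, where the deposited table has 1572 and 3928.

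Ratios of levels per kilobase within a library do not depend on the scaling of the library. The ratio of Irak2 to Irak1 was 0.507, 0.493 and 0.464 in control and 1.24, 1.37 and 1.20 in LPS libraries, a 2.60-fold difference on average (1.38 on the log2 scale). Irak2 to Irak4 stood at 1.40, 1.61 and 1.49 in control and 3.66, 4.14 and 3.61 in LPS libraries, a log2 difference of 1.34. In both ratios the groups were well separated. Cd14 to Ly96 was 241, 246 and 299 against 352, 397 and 316, a log2 difference of 0.44, with control replicate 3 close to LPS replicate 3. Ticam1 to Myd88, the heads of the branches, was 0.175, 0.185 and 0.188 against 0.218, 0.211 and 0.227, a log2 difference of 0.26. Ticam2 to Tirap, their bridging adaptors, was 0.383, 0.347 and 0.284 against 0.258, 0.273 and 0.206, a log2 difference of -0.46. The groups did not overlap in any of these 5 ratios. A two-sided exact permutation test gave p = 0.1 for each, which is the smallest value that 3 libraries against 3 allow, and adjustment over the 5 ratios left it at 0.1.

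**Figure D4:**
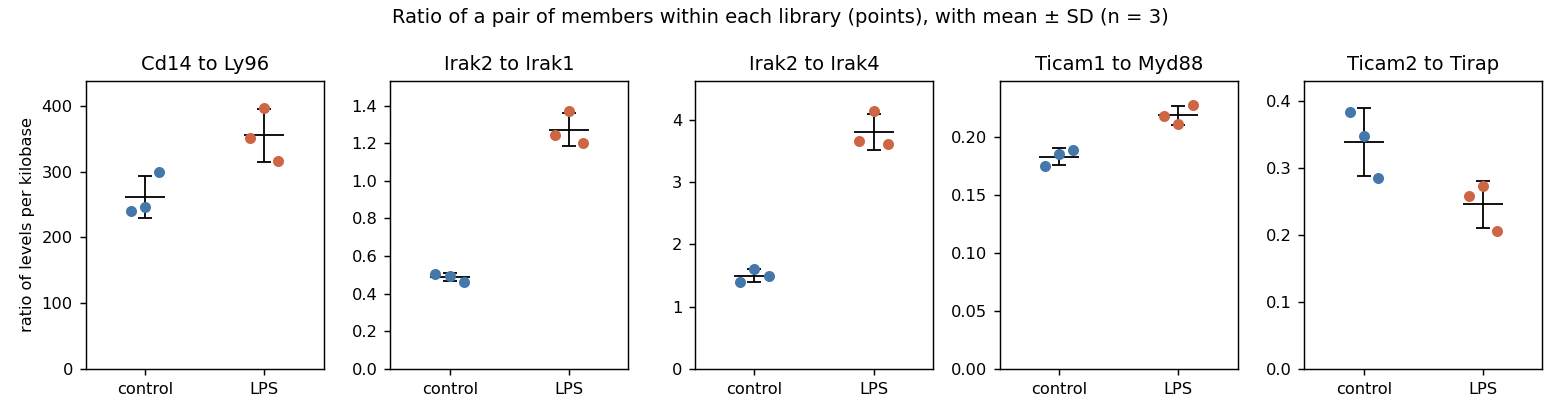
Ratio of the levels per kilobase of a pair of members (vertical axes, from 0) in each control and LPS library (points), with mean and SD (bars, n = 3). Irak2 to Irak1 passes from 0.488 on average in control to 1.27 in LPS libraries, and Ticam2 to Tirap is lower in all LPS libraries.

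The other genes of the pathway were taken as a list of 27, covering the receptor, related receptors, regulators and the kinase complexes that follow TRAF6 and TRIF, of which 25 were tested. With LPS 11 of the 25 were called higher, beside 18.7% of all tested genes, and 1 was called lower, beside 15.7%. Without the libraries with collagen counts, 6 were called higher and 1 lower. The median log2 fold change of the 25 was 0.24. The gene called lower was the receptor itself. Tlr4 was at 90.9, 89.5 and 84.6 CPM in control and 59.1, 59.2 and 66.0 CPM in LPS libraries, with no overlap, and fell by 0.52 on the log2 scale (SE 0.06, adjusted p = 3.64e-06 by edgeR). Per kilobase Tlr4 was at 15.9 ± 0.597 in control and 11.1 ± 0.713 in LPS libraries, so that Cd14 and Tlr4 moved in opposite directions.

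The changes over 1 on the log2 scale were those of Irak3, Ikbke and Peli1, all higher, the first 2 of which also passed 1.5 (2.4% of tested genes did so upwards). Irak3, the inhibitory member of the IRAK family, was at 4.61, 4.59 and 4.84 CPM in control and 19.1, 20.8 and 19.1 CPM in LPS libraries, a log2 fold change of 2.07 (SE 0.11, adjusted p = 1.62e-09 by edgeR). Ikbke, the inducible partner of TBK1, was at 23.4, 22.8 and 24.0 CPM against 80.2, 86.7 and 79.8 CPM, a log2 fold change of 1.81 (SE 0.06, adjusted p = 5.39e-12 by edgeR). Peli1, a ubiquitin ligase that binds IRAK proteins, was at 45.2, 46.4 and 44.8 CPM against 94.4, 94.95 and 91.3 CPM, a log2 fold change of 1.04 (SE 0.05, adjusted p = 3.36e-10 by edgeR). In the IRAK family, then, Irak2 and Irak3 rose while Irak1 and Irak4 were not called.

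The following genes of that list are named after their values were seen. The 4 genes that act on TBK1 and its partner, Traf3, Tank, Tbk1 and Ikbke, were all called higher, beside 18.7% of tested genes. Apart from Ikbke their changes were small. Traf3 rose by 0.24, Tank by 0.36 and Tbk1 by 0.46 (SE 0.07, adjusted p = 0.000188 by edgeR). Irf3, the transcription factor that TBK1 phosphorylates, had a log2 fold change of -0.04 with a 95% interval from -0.22 to 0.13, and leaving out 1 library moved it between -0.09 and 0.0016. Of the 4 genes of the TAK1 complex, Map3k7, Tab1, Tab2 and Tab3, 0 were called by edgeR and 0 by DESeq2. Only 1, Map3k7, had an unadjusted p under 0.05 by edgeR. Log2 fold changes of the 4 ran from -0.18 to 0.03. Leaving out 1 library moved Map3k7 between -0.14 and -0.09 and Tab1 between -0.26 and -0.10. It moved Tab2 between -0.03 and 0.07 and Tab3 between -0.19 and 0.02. These groups of 4 were formed after the values were seen, and 0 of 4 is not far from the share among all tested genes (18.7% higher and 15.7% lower). Of the IKK complex, Ikbkb rose by 0.38 and Ikbkg by 0.25, and Chuk had a value of 0.02 with a 95% interval from -0.11 to 0.16, and from -0.02 to 0.07 with each library left out. Cd180, a TLR4-like receptor, rose by 0.42, whereas its co-factor Ly86, the counterpart of Ly96, had a log2 fold change of -0.17 (edgeR adjusted p = 0.0637). Pik3ap1, an adaptor that links Toll-like receptors to PI3 kinase, rose by 0.44, and Irf5, a factor activated through MyD88, by 0.40. The others that were tested and not called were Sarm1, Tollip, Peli3, Ube2n, Ube2v1 and Ripk1. Ube2v1 had 6 to 26 counts per library, and 69.1% of its exonic bases are shared with other genes in GENCODE release M21. Lbp, with at most 10 counts, and Peli2, with at most 2, were below the filter.

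**Figure D5:**
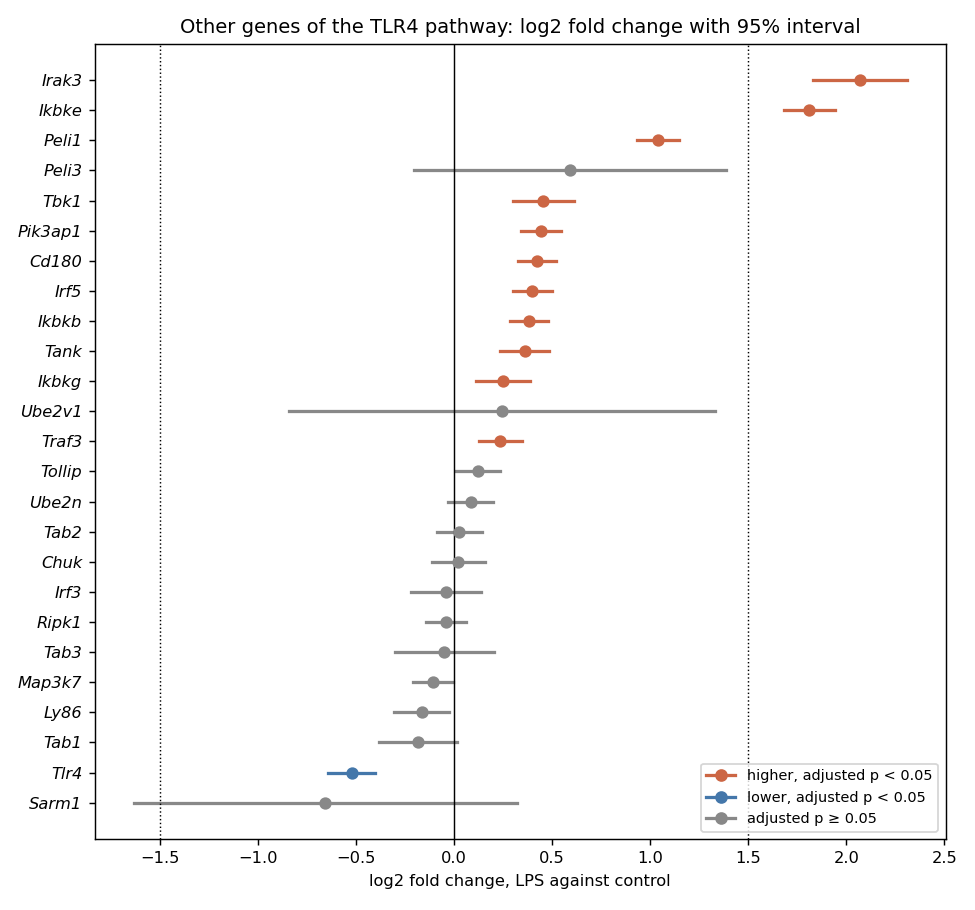
Log2 fold change of LPS against control with its 95% interval (horizontal axis) for the 25 tested genes of the wider TLR4 pathway, orange where higher and blue where lower at an adjusted p under 0.05. Irak3 at 2.07 and Ikbke at 1.81 lie beyond the dotted line at 1.5, Tlr4 at -0.52 is the only gene called lower, and the wide intervals belong to the sparsely counted Sarm1, Ube2v1 and Peli3.

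As no member passed a log2 fold change of 1.5, the genes most alike in pattern were sought for the member with the largest change, Irak2. Likeness was the Euclidean distance over the 6 libraries between log2 CPM profiles centred on their control means, among 10457 other genes whose mean count was 50 or more. The nearest were Rhbdf2 (distance 0.0967), which encodes the carrier of the TNF-releasing protease, Cybb (0.0969), which encodes the core subunit of the phagocyte oxidase, and Sdc3 (0.102), which encodes a cell-surface proteoglycan. Their log2 fold changes were 1.26, 1.32 and 1.34. With 2 conditions the measure mainly finds genes with a like fold change and little scatter.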

How the data were processed

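RNA was extracted from N9 microglia, and libraries were prepared, sequenced on an Illumina NovaSeq and processed by Novogene for the authors. The authors deposited raw read counts per gene, whole numbers without normalization, and the submitters' processing notes name featureCounts 1.5.0-p3 and mm10. The aligner, the annotation release and the use of strand are not given in the sources used here, so reads of overlapping genes cannot be told apart. A deposited table with the authors' own DESeq2 log2 fold changes and p-values was not used, and neither were its 18 columns of values per sample and 2 of group means. No row lacked a gene name (0 rows).

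Counts were tested with edgeR 4.0.16 under R 4.3.3 (filterByExpr by group, TMM, quasi-likelihood test, prior count 0.125, prior degrees of freedom 10.1, no replicate term), with Benjamini-Hochberg adjustment over 12296 genes. Standard errors are the log2 fold change divided by the square root of F, and 95% intervals use the t quantile at the total degrees of freedom. Single-gene exact permutation tests of 3 libraries against 3 cannot go below p = 0.1. Alternatives were DESeq2 1.42.0, RLE factors, no filter, a mean of 10 counts, robust dispersion, a prior count of 2, protein-coding genes alone, a replicate block, and each library left out. Within groups replicate libraries were further apart than sampling noise allows (chi-square per gene 3.47 to 7.35), so none was treated as a second deposit of another. Without molecular identifiers, counting limits cover counting error only. Positions are those of the deposited table, which GENCODE M21 on GRCm38 gave identically for 8 of 10 members. Figures used matplotlib 3.10.9 under Python 3.11.15.

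Members are all named. Of the wider list the rule names Tlr4 and up to 8 called genes past a log2 fold change of 1, and for likeness the 3 nearest genes. Members and lists were chosen with earlier results of these data known.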

Additional observations from a re-analysis of the deposited data

How the results depend on the processing

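Of 160 values of the members under alternatives, 159 kept their direction and 9 changed side of the threshold, 5 for Tirap and 4 for Traf6. The exception was Irak4, at 0.042 without control replicates 1 and 3 and LPS replicate 1. Cd14, Myd88, Ticam1 and Irak2 were called in all 14 alternatives named under processing, and Ly96, Ticam2, Irak4 and Irak1 in none (0 of 14). Traf6 was called with robust dispersion (adjusted p = 0.0435), with protein-coding genes alone (0.0433) and with the replicate block (0.0244), and the cause was not tested. With each library left out in turn, 4 to 5 members were called higher.

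The number of pathway genes called lower was 2 without the filter on low counts, with robust dispersion and with the replicate block, 1 to 2 with each library left out, and 3 without control replicates 2 and 3 (1 control library). Apart from the last of these, Ly86 was the gene added to Tlr4. All 12 pathway calls held in each of the 14. Over all genes, those lower by more than 1.5 numbered 31, and 91 without the filter and 38 to 62 with each library left out. Without control replicates 2 and 3, 1151 genes were called lower in place of 1927. Without control replicates 1 and 3 and LPS replicate 1 (1 control and 2 LPS libraries), 879 genes were called higher and 458 lower, 16 of them by more than 1.5, and 6 pathway genes were called higher in place of 11. Fewer samples entered these fits, and other causes were not tested.

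Same-numbered control and LPS libraries deviated together with correlations of 0.131, 0.0484 and 0.0049. Control replicate 1 correlated best with LPS replicate 1. Control replicate 2 correlated best with LPS replicate 3 (0.0772), and control replicate 3 with LPS replicate 2 (0.0115). With 3 libraries per group these values cannot decide whether the numbers pair the libraries. The replicate block moved the genes called higher from 2294 to 2454 and those called lower from 1927 to 2020. It changed no member's call apart from that of Traf6. Ly96 and Ticam2, the members with the fewest counts, had the widest intervals of the 10.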
